A study of Mus musculus with 6 samples.

Results

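The enzymes that turn farnesyl diphosphate into squalene and squalene into cholesterol were followed in mouse liver. They are 9 genes, Fdft1, Sqle, Lss, Cyp51, Tm7sf2, Msmo1, Nsdhl, Hsd17b7 and Dhcr7, of 19938 genes tested. A gene was taken where a probe set of the array carries its symbol and no other, and its brightest probe set by the mean over the 6 arrays was read. C57BL/6 mice, an inbred laboratory strain, ate a regular diet (RD) or a high fat diet (HFD) freely for 2 days, and each diet had 3 biological replicates with an array each of total RNA from frozen liver. No genotype, drug or other treatment separates the groups in the labels. The letters NI in every sample title have no stated meaning, and neither the makeup of the diets nor the age and sex of the mice was used here. Values are log2 signals as deposited, so a difference of 1 is a 2-fold change.

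Cholesterol is built in the endoplasmic reticulum from acetyl-CoA. Fdft1, the squalene synthase, joins farnesyl diphosphate to squalene and so commits the carbon to sterols. Sqle, the squalene monooxygenase, adds oxygen and Lss closes the rings to lanosterol. Cyp51 and the sterol reductase Tm7sf2 then remove a methyl group and the double bond left behind. Msmo1, Nsdhl and Hsd17b7 take off further methyl groups in turn, and Dhcr7 carries out the last step of the branch through dehydrocholesterol. The transcription factor SREBP2, which is released from the endoplasmic reticulum when its sterols run low, is known to switch on these genes in liver, often beside the factors NF-Y and Sp1.

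The promoter of a gene is where these factors bind, so the stretch before the start was read for members that fell strongly (Msmo1, Nsdhl and Cyp51) and for a member that fell less (Tm7sf2). Each sequence below is the 250 bases before the RefSeq start in build GRCm38.p6, 5′ to 3′ on the strand of the gene. Capitals mark the CCAAT box (CCAAT or ATTGG) and the GC box (GGGCGG or CCGCCC), the motifs that NF-Y and Sp1 are known for.
Msmo1, chr8:64733579-64733828, minus strand: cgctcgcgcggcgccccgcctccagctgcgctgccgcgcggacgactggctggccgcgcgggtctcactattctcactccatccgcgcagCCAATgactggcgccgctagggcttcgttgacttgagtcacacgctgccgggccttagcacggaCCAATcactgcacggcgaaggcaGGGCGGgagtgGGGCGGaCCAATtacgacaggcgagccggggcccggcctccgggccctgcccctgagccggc
Nsdhl, chrX:72918271-72918520, plus strand: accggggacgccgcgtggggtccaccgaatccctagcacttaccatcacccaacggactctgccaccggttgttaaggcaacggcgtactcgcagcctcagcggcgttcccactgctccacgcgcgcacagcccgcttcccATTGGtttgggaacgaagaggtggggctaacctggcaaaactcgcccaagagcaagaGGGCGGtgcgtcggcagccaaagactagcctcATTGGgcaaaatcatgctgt
Cyp51, chr5:4104698-4104947, minus strand: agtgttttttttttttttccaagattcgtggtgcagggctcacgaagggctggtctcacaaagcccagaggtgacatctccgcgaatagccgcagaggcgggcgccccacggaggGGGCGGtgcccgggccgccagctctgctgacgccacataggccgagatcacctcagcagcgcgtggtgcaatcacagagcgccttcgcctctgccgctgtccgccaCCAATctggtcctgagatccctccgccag
Tm7sf2, chr19:6067851-6068100, minus strand: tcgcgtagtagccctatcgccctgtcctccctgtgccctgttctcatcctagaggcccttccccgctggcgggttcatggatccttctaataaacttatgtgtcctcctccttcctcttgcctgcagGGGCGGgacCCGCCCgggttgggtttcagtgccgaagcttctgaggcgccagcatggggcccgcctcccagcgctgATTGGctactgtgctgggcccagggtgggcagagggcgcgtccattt

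RefSeq promoter windows of 300 bases, 250 before and 50 after a start, were matched for 7 of the 9 enzymes, with 9 windows in all because Dhcr7 has 3 starts. Fdft1 and Sqle were not matched, so the counts leave them out. A CCAAT box on either strand was in at least 1 window of each of the 7 genes and in 7 of the 9 windows, against 37.4% of all 32851 windows. A GC box was in at least 1 window of each of the 7 genes and in 8 of the 9 windows, against 35.7% of all windows. Msmo1 held 3 CCAAT boxes and 2 GC boxes, at 160, 96, 55, 73 and 62 bases before its start in that order. The SREBP motif TCACNCCAC was found in 0 of the 9 windows, against 1.24% of all windows. Its shorter form CACNCCA, which is contained in it, was in 1 window, that of Msmo1, against 18.4%. The E-box CACGTG, another motif SREBP factors can bind, was in 2 windows, of Hsd17b7 and Dhcr7, against 7.15%. A match describes letters in a window and is not a shown binding site. Only these exact letters were searched, so a window without a match is not shown to lack a site for SREBP factors. Sites with other letters were not looked for.

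After 2 days of HFD all 9 enzymes were lower, and in none did an HFD array reach any RD array. Sqle fell most, to 14.0% of its RD level. Nsdhl, Msmo1 and Cyp51 fell to between 21.6% and 26.0%, and Dhcr7 to 32.8%. Hsd17b7, Lss and Tm7sf2 ended at 46.6%, 49.5% and 51.3%. Fdft1 fell least, to 66.6%. The 9 calls (limma, Benjamini-Hochberg adjusted p under 0.05 over all genes) stand against a background of 2.24% of all genes called lower and 3.11% called higher. Values with no overlap, HFD below RD, were seen in 11.7% of all genes. A fall of at least 2-fold that passed the test was seen in 7 of the 9, against 0.236% of all genes. The median difference, HFD minus RD, was -1.61 on the log2 scale for the 9 enzymes and -0.003 for all genes, and 8 of the 9 were among the 100 genes with the lowest differences.

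**Figure D1:**
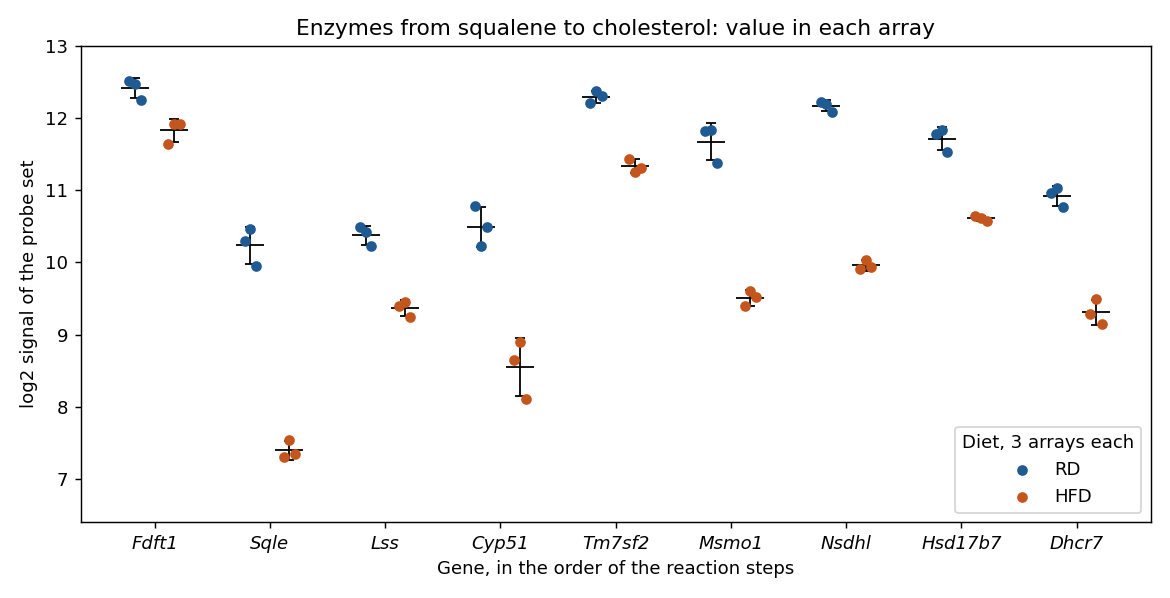
Log2 signal of each of the 9 enzymes in the order of the reactions, with 3 RD arrays in blue and 3 HFD arrays in orange; bars are the mean and SD of a diet. In each gene the HFD points lie below the RD points, with the widest gap at Sqle (10.23 against 7.40) and the narrowest at Fdft1 (12.41 against 11.83). Heights of different genes are not comparable, since probe sets differ in response.

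Fdft1 (probe set 10420730), at the branch from farnesyl diphosphate, had log2 values of 12.52, 12.47 and 12.25 in RD replicates 1 to 3 and 11.65, 11.92 and 11.92 in HFD replicates 1 to 3. RD replicate 3 was the array nearest to the HFD values and still lay above them. The difference of -0.59 ± 0.10 (SE; limma adjusted p = 0.019) was the smallest of the 9. It was the only call of the 9 that an alternative ended: the adjusted p was 0.077 without RD replicate 1, 0.076 without RD replicate 2, 0.051 with the replicate number as a block and 0.078 when every row of the table was fitted. A dimmer probe set of Fdft1, 10412909, was lower by -0.42 ± 0.12, also with no overlap, and did not pass over every row (limma adjusted p = 0.165). Both probe sets carry Fdft1 accessions, and the brighter was used.

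Sqle (probe set 10424349), which makes the oxidosqualene that all later steps use, read 10.29, 10.46 and 9.95 in RD and 7.30, 7.55 and 7.34 in HFD. The highest HFD array was more than 2 log2 units below the lowest RD array. The difference was -2.84 ± 0.13 (95% confidence interval -3.14 to -2.54; limma adjusted p = 4.8e-05), a fall of 7.16-fold and the third lowest of all 19938 genes. Its HFD mean lay at the 47.8th percentile of all genes. Whether background limits so low a value was not tested.

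Lss (probe set 10364194), the lanosterol synthase, read 10.48, 10.42 and 10.23 in RD and 9.40, 9.46 and 9.24 in HFD. The diets were apart by several times the SD of either (0.13 in RD and 0.11 in HFD, n = 3 each). The difference was -1.01 ± 0.09 (limma adjusted p = 8.4e-04), less than that of the enzymes on either side, Sqle and Cyp51.

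Cyp51 (probe set 10527920), the cytochrome that demethylates lanosterol, read 10.78, 10.22 and 10.49 in RD and 8.65, 8.90 and 8.11 in HFD. It had the widest spread of the 9, with an SD of 0.28 in RD and 0.40 in HFD, and HFD replicate 3 was the lowest array. The difference was -1.94 ± 0.20, with a 95% confidence interval from -2.41 to -1.48 (limma adjusted p = 0.0018).

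Tm7sf2 (probe set 10465342), which reduces the double bond that Cyp51 leaves, read 12.21, 12.37 and 12.30 in RD and 11.44, 11.25 and 11.31 in HFD. Its arrays were close within each diet, with SDs of 0.08 and 0.09. The difference was -0.96 ± 0.08 (limma adjusted p = 6.3e-04). Lbr, the lamin B receptor, is an inner nuclear membrane protein that can carry out the same reduction. Its mean was 8.90 ± 0.08 in RD and 8.84 ± 0.10 in HFD (SD, n = 3 each), and the difference of -0.07 ± 0.08 did not pass (95% confidence interval -0.24 to 0.11; limma adjusted p = 0.70). Tm7sf2 minus Lbr within an array was 3.38, 3.40 and 3.39 in RD and 2.53, 2.52 and 2.44 in HFD. The ratio of this pair fell by 0.90 on the log2 scale, with no overlap between the diets (exact two-sided permutation test over 6 arrays, p = 0.10, the smallest that 3 against 3 allows).

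Msmo1, Nsdhl and Hsd17b7 act one after another on the same methyl groups. Msmo1 (probe set 10578916), the methylsterol monooxygenase, read 11.83, 11.83 and 11.37 in RD and 9.40, 9.61 and 9.53 in HFD. RD replicate 3 was the low array of its diet and still lay far above every HFD array. The difference was -2.17 ± 0.13 (limma adjusted p = 1.5e-04). Nsdhl (probe set 10600082), the sterol dehydrogenase that follows, read 12.22, 12.20 and 12.08 in RD and 9.91, 10.04 and 9.93 in HFD. These were among the tightest values of the 9, with SDs of 0.08 and 0.07, and the difference of -2.21 ± 0.07 had the smallest p of the 9 (limma adjusted p = 6.8e-06). Hsd17b7 (probe set 10359917), the ketoreductase that ends each round, read 11.78, 11.84 and 11.53 in RD and 10.65, 10.61 and 10.58 in HFD. Its difference of -1.10 ± 0.09 (limma adjusted p = 6.2e-04) was about 1 log2 unit smaller in size than those of its 2 partners. Within arrays, Nsdhl fell by 1.11 and Msmo1 by 1.06 on the log2 scale relative to Hsd17b7, with no overlap of the diets in either ratio.

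Dhcr7 (probe set 10559312), the dehydrocholesterol reductase, read 10.96, 11.03 and 10.76 in RD and 9.28, 9.50 and 9.15 in HFD. The difference was -1.61 ± 0.11 (limma adjusted p = 2.3e-04), the median of the 9.

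**Figure D2:**
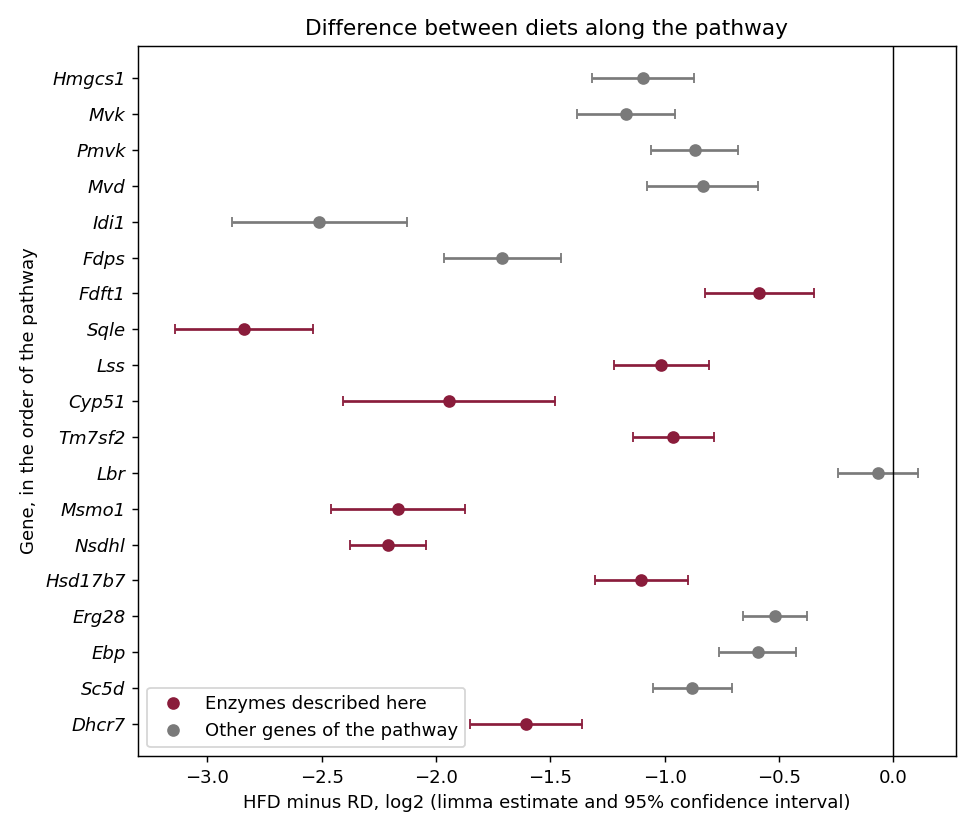
HFD minus RD on the log2 scale (limma estimate with 95% confidence interval) for the 9 enzymes in dark red and other genes of cholesterol synthesis in grey, from the early steps at the top to Dhcr7 at the bottom. Sqle (-2.84) and Idi1 (-2.51) lie farthest left, and Lbr (-0.07) is the only gene shown whose interval crosses 0. Ggps1 and Idi2, whose intervals also cross 0, are not shown.

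The size of the fall did not follow the order of the reactions. Among the enzymes followed, the differences from Fdft1 to Dhcr7 alternated between small (Fdft1, Lss, Tm7sf2, Hsd17b7) and large (Sqle, Cyp51, Msmo1 with Nsdhl, Dhcr7). This grouping was drawn from the observed differences and takes the neighbours Msmo1 and Nsdhl together. It also leaves out Ebp and Sc5d, which act just before Dhcr7. Their differences (HFD minus RD) were small as well, -0.59 and -0.88, so with them the alternation did not hold. To see which sizes differ beyond the spread of the arrays, the log2 ratio of a pair of enzymes was formed within each array and compared between diets, which cancels any shift of a whole array. Of all 36 pairs, the ratios of 28 did not overlap between diets. Each pair was ordered by its observed falls, and the pairs share the same enzymes and arrays. The share over pairs of all genes was not computed, so the count has no background. The ratio of Sqle to each of the other 8 did not overlap, with falls of 0.63 relative to Nsdhl and 2.25 relative to Fdft1. Nsdhl, Msmo1 and Cyp51 overlapped with each other, as did Hsd17b7, Lss and Tm7sf2. Cyp51 also overlapped with Dhcr7, and Tm7sf2 with Fdft1. Of the 8 neighbouring pairs in the order of the falls, 2 did not overlap, Sqle with Nsdhl and Dhcr7 with Hsd17b7. These 2 reached p = 0.10 in the exact two-sided permutation test, the smallest it can give, and 0.40 after adjustment over the 8 pairs. Overlap does not show that 2 enzymes fell alike. Probe sets differ in response, and the spread of the arrays does not measure this. A gap therefore does not show that the transcripts fell unequally. The 2 probe sets of Fdft1 differed between diets by -0.59 and -0.42.

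**Figure D3:**
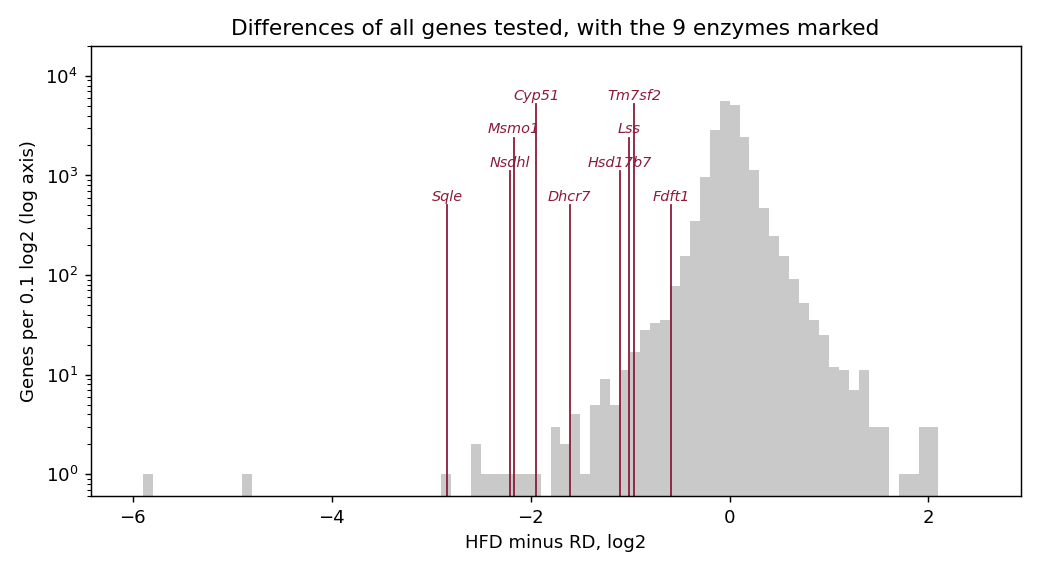
Distribution of HFD minus RD, in log2 units, over the 19938 genes tested, as genes per bin of 0.1 on a log axis; lines mark the 9 enzymes. The bulk lies around 0 (median -0.003), and the lines run from Sqle at -2.84 to Fdft1 at -0.59.

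Within a diet, most of the enzymes deviated in the same direction in some arrays. RD replicate 3 held the lowest RD value of 7 of the 9 enzymes, and its median deviation from the RD mean was -0.15 for the enzymes and 0.01 for all genes. RD replicates 1 and 2 were each above the RD mean for 8 of the 9, which is tied to the low replicate 3 since deviations from a mean cancel. HFD replicate 2 was above the HFD mean for 8 of the 9 and held the highest HFD value of 6. Tm7sf2 went the other way in both cases, with its lowest RD value in replicate 1 and its lowest HFD value in replicate 2. Cyp51 had its lowest RD value in replicate 2. The lowest HFD values were split, with 4 in replicate 1, 1 in replicate 2 and 4 in replicate 3. Shares of all genes were not computed for these counts. The median SD within a diet, pooled over both, was 0.15 for the 9 enzymes and 0.10 for all genes. These shifts are small beside the difference between diets: the largest single deviation was -0.44, of Cyp51 in HFD replicate 3.

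**Figure D4:**
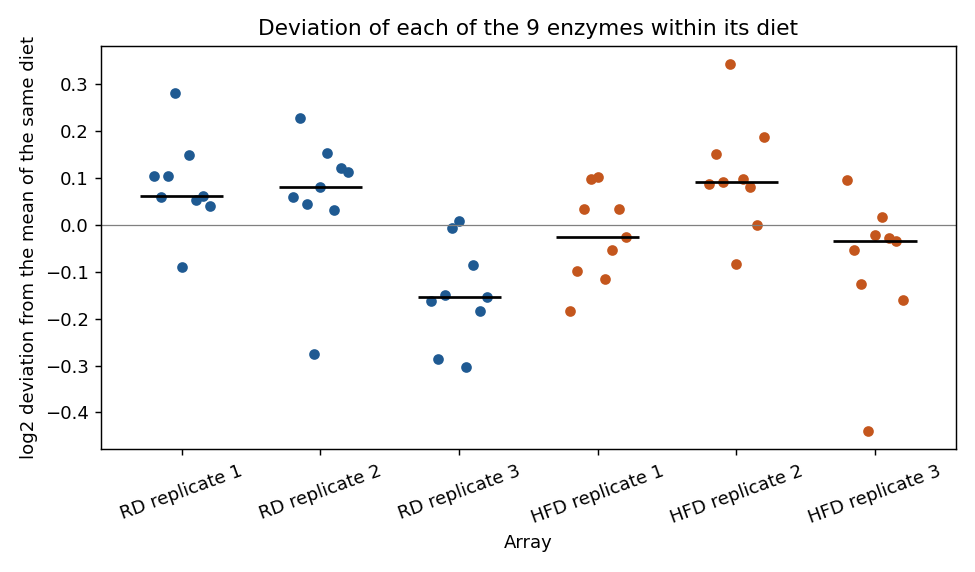
Log2 deviation of each of the 9 enzymes from its mean in the same diet, by array, with a black line at the median. The points of RD replicate 3 lie mostly below 0 (median -0.15) and those of HFD replicate 2 mostly above (median 0.09).

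The genes whose values over the 6 arrays ran most like the mean of the 9 enzymes were Erg28, Sult2a8, Agap2, Acacb and Fdps, with Pearson's r of 0.998, 0.998, 0.996, 0.996 and 0.995. These are descriptions over 6 arrays that share their diets, and 34 genes outside the 9 had an r over 0.99. Erg28 is a scaffold protein of the complex of Msmo1, Nsdhl and Hsd17b7. It read 12.92, 12.92 and 12.88 in RD and 12.40, 12.41 and 12.36 in HFD, a difference of -0.52 ± 0.06 (limma adjusted p = 0.0031). Replicate 3 was its lowest array in both diets and replicate 2 its highest. Fdps, which makes the farnesyl diphosphate that Fdft1 uses, read 11.90, 11.76 and 11.72 in RD and 10.03, 10.32 and 9.90 in HFD.

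Other genes of the pathway were read from lists. Of 3 further genes after squalene, 2 fell. Sc5d, the sterol desaturase just before Dhcr7, went from 12.76 ± 0.06 to 11.88 ± 0.10 (difference -0.88 ± 0.08, limma adjusted p = 7.6e-04). Ebp, the sterol isomerase before Sc5d, went from 12.17 ± 0.05 to 11.58 ± 0.09 (difference -0.59 ± 0.07, limma adjusted p = 0.0039). Lbr is the gene that did not pass. Of 8 genes of the steps before squalene, 6 fell, also with any single array left out, with Idi1, the isomerase that makes a building block of farnesyl diphosphate, at -2.51 ± 0.17 and Fdps at -1.71 ± 0.11. Mvk, the mevalonate kinase, differed by -1.17 ± 0.09 and Hmgcs1, the HMG-CoA synthase, by -1.10 ± 0.10. Those that did not pass were Ggps1, which draws farnesyl diphosphate away from sterols (0.08 ± 0.07, 95% confidence interval -0.09 to 0.25), and Idi2 (0.16 ± 0.10). None of 10 genes of the other uses of farnesyl diphosphate (dolichol, ubiquinone, haem A and protein prenylation) passed in limma. An unadjusted p under 0.05 was seen in 2. The share of all genes under that unadjusted cut was not computed, so such counts, here and below, have no background. The median difference of the 10 was -0.02, with a range from -0.26 to 0.20.

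Partner proteins were read next. Msmo1 and Sc5d take electrons from cytochrome b5 and its reductases, and other proteins bind or stimulate enzymes of the pathway. Of 11 such genes 2 fell, Erg28 and the cytochrome b5 reductase Cyb5r3 (from 13.83 ± 0.04 to 13.42 ± 0.05, limma adjusted p = 0.010), and 0 rose. Their median was -0.16. Cytochrome b5 itself, Cyb5a, differed by 0.09 ± 0.06 and Pgrmc1, a membrane protein that binds Cyp51, by 0.08 ± 0.06, neither past the test. Sec14l2, which stimulates Sqle, differed by -0.22 ± 0.07 (limma adjusted p = 0.12). Of 10 genes for the sterol-regulated breakdown of Sqle and other enzymes none passed in limma (3 had an unadjusted p under 0.05), with a median of 0.11. The count of 3 has no background over all genes. Differences were above 0 in 7 of the 10. The 3 with an unadjusted p under 0.05 were Rnf145, a sterol-responsive ubiquitin ligase, at 0.40 ± 0.10 (limma adjusted p = 0.051), Marchf6, the ubiquitin ligase of Sqle, at -0.24 ± 0.06 (adjusted p = 0.075), and Nploc4, a cofactor that helps extract proteins from the membrane, at 0.18 ± 0.06 (adjusted p = 0.15). None of the 3 overlapped between diets.

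Of 13 genes listed under SREBP2 activation and sterol uptake 6 fell and 0 rose, with a median of -0.14. The list is broader than its name, and not all its genes, such as Rdh11, have these roles. Differences were above 0 in 5 of the 13, among them Insig2 (0.40 ± 0.14, with overlap between the diets, limma adjusted p = 0.15). Srebf2, which encodes SREBP2, went from 10.24 ± 0.22 to 9.72 ± 0.05 (difference -0.52 ± 0.11, limma adjusted p = 0.034). The falls of Srebf2, of Scap (-0.33 ± 0.07), which escorts SREBP2, and of Insig1 (-0.41 ± 0.09), which retains it, did not hold when arrays were left out. Srebf2 and Insig1 each passed only without RD replicate 3 (adjusted p up to 0.102 for Srebf2 and 0.134 for Insig1), and Scap passed in none of the 6 cases. The list counted 3 falls without any array other than RD replicate 3 and 5 without that array. Stard4 (-1.12 ± 0.09), Rdh11 (-0.81 ± 0.07) and Tmem97 (-0.54 ± 0.08) kept their calls in all 6. The Srebf2 fall was smaller than those of all 9 enzymes; that difference was not tested.

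The makeup of the tissue was read from marker genes. None of 9 hepatocyte markers passed in limma (0 had an unadjusted p under 0.05), with differences from -0.13 to 0.12, and their summed linear signal was 146424 to 146457 in RD and 143661 to 146455 in HFD. The mean of Alb, the serum albumin gene, was 14.42 in both diets. The highest signals of the arrays were 14.73 to 14.86, and whether a ceiling limits such bright markers was not tested. Of 11 markers of Kupffer cells, the liver macrophages, 6 rose, and their summed linear signal was 14534 to 15295 in RD and 17659 to 25020 in HFD. The 4 with the smallest p in limma were Cd5l (difference 0.85 ± 0.12, SE), Timd4 (0.67 ± 0.11), C1qb (0.64 ± 0.13) and Adgre1 (0.82 ± 0.17). The Kupffer count was 1 without RD replicate 1 or 2, 2 without RD replicate 3 or HFD replicate 3, and 5 and 8 without HFD replicate 1 and 2. Of 4 bile duct markers 4 rose (0 or 1 with an array left out), from a sum of 841 to 931 in RD to 1142 to 1300 in HFD. Their differences were 0.70 ± 0.14 for Krt19, 0.54 ± 0.10 for Epcam, 0.33 ± 0.07 for Krt7 and 0.29 ± 0.06 for Sox9. Of 7 monocyte and neutrophil markers 2 rose (1 without each single RD array), Cd14 (0.52 ± 0.07) and Lyz2 (0.68 ± 0.13). Differences were above 0 in 6 of the 7. S100a8 (-0.21 ± 0.09, lower with no overlap), S100a9 (0.02 ± 0.09) and Ly6g (0.15 ± 0.08) did not pass. The summed signal of the 7 was 1690 to 1794 in RD and 2354 to 3181 in HFD. It mostly reflects Lyz2, the brightest of the 7 (RD mean 10.37 on the log2 scale). None of 9 lymphocyte, 8 endothelial, 8 stellate, 5 adipocyte or 2 red cell markers passed in limma (1 endothelial marker had an unadjusted p under 0.05). The part of other cells in the fall of the 9 enzymes was not tested. In a piece of liver, fewer cells that make a transcript and less of it per cell cannot be told apart. Array medians lay between 7.06 and 7.11. Over genes, 2 arrays of the same diet correlated at 0.996 to 0.997 (Pearson's r) and 2 of different diets at 0.991 to 0.994.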

How the data were processed

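Per the labels, liver RNA of 3 RD and 3 HFD replicates was labelled with a GeneChip kit and put on 6 arrays. The deposited table holds log2 signals of 35512 probe sets, made by the authors; for summarisation and normalization, methods were not given in the sources used here. The range of the values shows a log scale, read here as base 2. Values were used as deposited. Of these probe sets 21789 have 1 symbol in the platform annotation; the brightest of each gene was kept, which left 19938 genes. The model, in limma 3.58.1 under R 4.3.3, held diet alone. Its two-sided p-values were adjusted over the 19938 genes (Benjamini-Hochberg), and a call needed an adjusted p under 0.05. The fit was tested on simulated data. Pairs of enzymes were compared by exact permutation over arrays. Of the related lists, genes past the threshold are named, up to 4 each by smallest p, and Lbr. Ggps1, Idi2, Cyb5a, Pgrmc1, Sec14l2, Marchf6, Rnf145 and Nploc4 were named after their values were seen. So were Scap, Insig1, Insig2, Alb, S100a8, S100a9 and Ly6g. The enzymes and lists were chosen with earlier results of these data known. The p-values measure the spread between these samples, whose small number limits precision. Detection calls and scan dates were not used here, and batch was not tested.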

Additional observations from a re-analysis of the deposited data

How the results depend on the processing

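Each of the 9 differences kept its sign under 14 alternatives, and 8 of the enzymes passed the threshold in all 14: each of the 6 arrays left out, weights per array, quantile normalization, median centring, a robust prior with a trend on intensity, brighter genes alone, averaged probe sets, all rows fitted, and a replicate block. Fdft1 passed in 10. The count of enzymes lower and past the threshold was 8 or 9. The counts over all genes moved more. Against 446 lower and 621 higher genes, the fit of every row gave 173 and 168, and the replicate block gave 245 and 318. Other settings raised them or moved the directions apart: brighter genes alone gave 619 and 862, the robust prior with a trend 615 and 850, and median centring 384 and 726. Without 1 array, which leaves fewer samples, lower genes numbered 178 to 273 and higher genes 197 to 371. The cause of the change over every row was not tested. Replicate numbers were not shown to pair the arrays: deviations of same-numbered arrays correlated at -0.107, 7.2e-05 and 0.117 over genes, and 2 of 6 arrays correlated best with their own number. Quantile normalization moved no within-array comparison of neighbours by more than an SD. Reading only the 250 bases before the start left the motif counts of the enzymes as they were.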

Other observations

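Of 12 genes listed under oxysterol and sterol ester enzymes, 1 rose and 0 fell in limma, with a median difference of 0.01. The list can be broader than its name, and no role of Ephx1 in oxysterols is shown by these data. An unadjusted p under 0.05 was seen in 6 of the 12, and apart from the gene that rose these were lower: Cyp7b1, Nceh1 (-0.38 ± 0.12), Ephx2 (-0.24 ± 0.07), Hsd3b7 (-0.22 ± 0.07) and Cyp27a1 (-0.16 ± 0.06), with adjusted p from 0.10 to 0.20. The diets overlapped in Cyp7b1 and in none of the other 4. The share of all genes with an unadjusted p under 0.05 was not computed, so the count of 6 has no background. The list was not tested against the 9 enzymes of synthesis. The gene that rose was Ephx1, the microsomal epoxide hydrolase, which went from 12.90 ± 0.12 to 13.68 ± 0.03 on HFD (mean and SD of 3 arrays; limma adjusted p = 0.0014), a call kept without any single array. Cyp7b1, the oxysterol hydroxylase, differed by -0.63 ± 0.24 with overlap between the diets (limma adjusted p = 0.19), and Lcat, which esterifies cholesterol in plasma, by 0.02 ± 0.06. Apart from Ephx1, these genes were chosen after their values were seen.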
